A study of Mus musculus with 11 samples.

Results

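The 35 genes described here encode enzymes of the mevalonate and sterol pathway, regulators of sterol-dependent transcription, and enzymes of fatty acid synthesis and desaturation. The rule that selects them is a list of gene names and uses no measured value, but the list was chosen with earlier results of these data known. They are 35 of the 49671 genes in the count table. All 35 were found by symbol, and all 35 passed the filter on low counts, as did 20893 genes in total. They comprise 8 genes of the mevalonate and isoprenoid steps, 11 genes from squalene to cholesterol, 6 genes of sterol sensing and transport, and 10 genes of fatty acid synthesis, elongation and desaturation.

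RNA was sequenced from sorted adrenal cells of male Nes-GFP mice, a strain in which green fluorescent protein marks cells with activity of Nestin regulatory sequence. Nestin is an intermediate filament protein used as a marker of progenitor cells in nervous tissue and elsewhere. Cortex and medulla were dissected apart, pooled by tissue from 6 mice as 3 pools of 2 mice, dissociated, and sorted by fluorescence into tubes of 180 to 300 cells. The design text presents the fluorescent cells as progenitors, and the comparisons ask how they differ from the other cells of the same tissue and between the tissues. The groups were cortex GFP-positive (n = 3), cortex GFP-negative (n = 3), medulla GFP-positive (n = 3) and medulla GFP-negative (n = 2), all Nes-GFP and untreated as far as the labels state. Mice were about 3.5 or 2.5 months old. In both cortex groups, libraries 1 and 2 were of the older age and library 3 of the younger. Older mice gave medulla GFP-positive library 1 and the 2 medulla GFP-negative libraries, and younger mice gave medulla GFP-positive libraries 2 and 3. The gate is a reporter of 1 gene and not a purified cell type, and the labels do not tie a library to a pool. If each pool was of 1 age, 3 pools cannot give every medulla library of a group its own pool. Libraries of at least 1 medulla group would then share mice, and their n would overstate the independent samples.

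Total counts per library lay between 18500690 and 29204212. Levels below are CPM, the usual scaling of counts by library size, with TMM factors, and 3 counts correspond to 0.104 to 0.157 CPM. Nes itself reached 35.3 to 50.9 CPM in cortex GFP-positive and 4.59 to 7.44 CPM in cortex GFP-negative libraries, and 69.2 to 178 CPM in medulla GFP-positive and 16.1 to 26.1 CPM in medulla GFP-negative libraries. The summed CPM of 12 steroid cell markers was 65610 to 75420 in cortex GFP-positive, 37770 to 42630 in cortex GFP-negative, 24190 to 42950 in medulla GFP-positive and 9333 to 17170 in medulla GFP-negative libraries. Steroid cell markers were therefore present in every library, those of the medulla included. The summed CPM of 12 chromaffin cell markers was 5768 to 10000 in medulla GFP-positive and 5399 to 8333 in medulla GFP-negative libraries, against 70.6 to 198 in cortex GFP-positive and 58.2 to 70.1 in cortex GFP-negative libraries.

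Cholesterol is made from acetyl-CoA through mevalonate, farnesyl diphosphate, squalene and lanosterol. When sterols in the endoplasmic reticulum are low, the escort protein SCAP carries the transcription factors SREBP-1 and SREBP-2 to the Golgi, where they are cut and released, and INSIG proteins hold SCAP back when sterols are high. SREBP-2 mainly drives cholesterol genes and SREBP-1 mainly drives fatty acid genes. In the adrenal cortex cholesterol is the precursor of all steroid hormones, and it can be taken up from lipoproteins as well as made in the cell. Desaturases set the degree of unsaturation of fatty acids in membranes and in the cholesteryl esters of lipid droplets.

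Promoter sequence was read for the 28 of the 35 genes with an entry in a RefSeq promoter table (build GRCm38.p6), over the 250 bases before each annotated start. The motifs searched, on both strands, were CCAAT, the box bound by the factor NF-Y, CACGTG, the E-box that SREBP-1 can also bind, and TCACNCCAC with its exact form TCACCCCAC, a core form of the sterol regulatory element. CCAAT occurred in 22 of 28 genes (78.6%), against 37.5% of the 27025 genes in the table. CACGTG occurred in 6 of 28 (21.4%), namely Hsd17b7, Sc5d, Dhcr7, Scap, Insig1 and Elovl5, against 6.86% of all genes. TCACNCCAC and TCACCCCAC each occurred in 1 of 28 (3.57%), Hmgcs1, against 1.22% and 0.555% of all genes. Windows of the following 5 genes are shown because they hold the motifs found and, as given further on, their genes were higher in the GFP-positive cells of at least 1 tissue. Capitals mark the motifs, with ATTGG as CCAAT on the other strand. Hmgcs1 is shown around its sterol element, and the others over the 150 bases before the start, 5′ to 3′ on the strand of the gene.
Hmgcs1, chr13:119690169-119690267, + strand: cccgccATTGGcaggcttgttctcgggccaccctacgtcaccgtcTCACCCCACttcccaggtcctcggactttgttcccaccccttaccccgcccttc
Cyp51, chr5:4104698-4104847, - strand: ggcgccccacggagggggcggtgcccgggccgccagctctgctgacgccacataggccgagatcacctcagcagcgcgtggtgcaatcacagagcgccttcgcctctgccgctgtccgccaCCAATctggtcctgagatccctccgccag
Msmo1, chr8:64733579-64733728, - strand: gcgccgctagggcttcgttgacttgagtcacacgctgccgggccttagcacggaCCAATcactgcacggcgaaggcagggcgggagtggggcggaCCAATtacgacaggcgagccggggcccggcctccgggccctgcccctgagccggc
Fasn, chr11:120824548-120824697, - strand: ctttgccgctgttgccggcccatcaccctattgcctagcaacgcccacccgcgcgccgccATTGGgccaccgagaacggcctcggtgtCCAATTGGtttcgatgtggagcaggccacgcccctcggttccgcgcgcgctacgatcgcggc
Insig1, chr5:28071262-28071411, + strand: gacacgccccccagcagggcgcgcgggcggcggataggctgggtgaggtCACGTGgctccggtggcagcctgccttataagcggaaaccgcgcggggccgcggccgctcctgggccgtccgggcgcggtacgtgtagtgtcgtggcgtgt

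Taken as a sum over the 35 genes, the level was 5650 to 6900 CPM in cortex GFP-positive, 2790 to 3100 CPM in cortex GFP-negative, 5360 to 6040 CPM in medulla GFP-positive and 1560 to 2110 CPM in medulla GFP-negative libraries. The ranges of the gates were separate within each tissue. The fatty acid genes carried most of the sum, with 4205 ± 537 CPM in cortex GFP-positive, 1809 ± 126 CPM in cortex GFP-negative, 3383 ± 40.4 CPM in medulla GFP-positive and 1030 ± 232 CPM in medulla GFP-negative cells (SD, n = 3, 3, 3 and 2). The 11 genes from squalene to cholesterol summed to 1664 ± 134 CPM in cortex GFP-positive, 742.9 ± 60.3 CPM in cortex GFP-negative, 1639 ± 293 CPM in medulla GFP-positive and 470.0 ± 148 CPM in medulla GFP-negative cells. The 8 mevalonate and isoprenoid genes summed to 275.9 ± 15.2 CPM in cortex GFP-positive, 229.6 ± 19.2 CPM in cortex GFP-negative, 365.8 ± 49.3 CPM in medulla GFP-positive and 148.9 ± 18.2 CPM in medulla GFP-negative cells. In each of these sums the GFP-positive mean was above the GFP-negative mean of the same tissue. The 6 regulators summed to 264.7 ± 14.5 CPM in cortex GFP-positive, 183.5 ± 16.4 CPM in cortex GFP-negative, 316.3 ± 27.6 CPM in medulla GFP-positive and 185.7 ± 2.57 CPM in medulla GFP-negative cells. In these sorted pools, fewer cells of a type and less RNA per cell cannot be told apart.

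**Figure D1:**
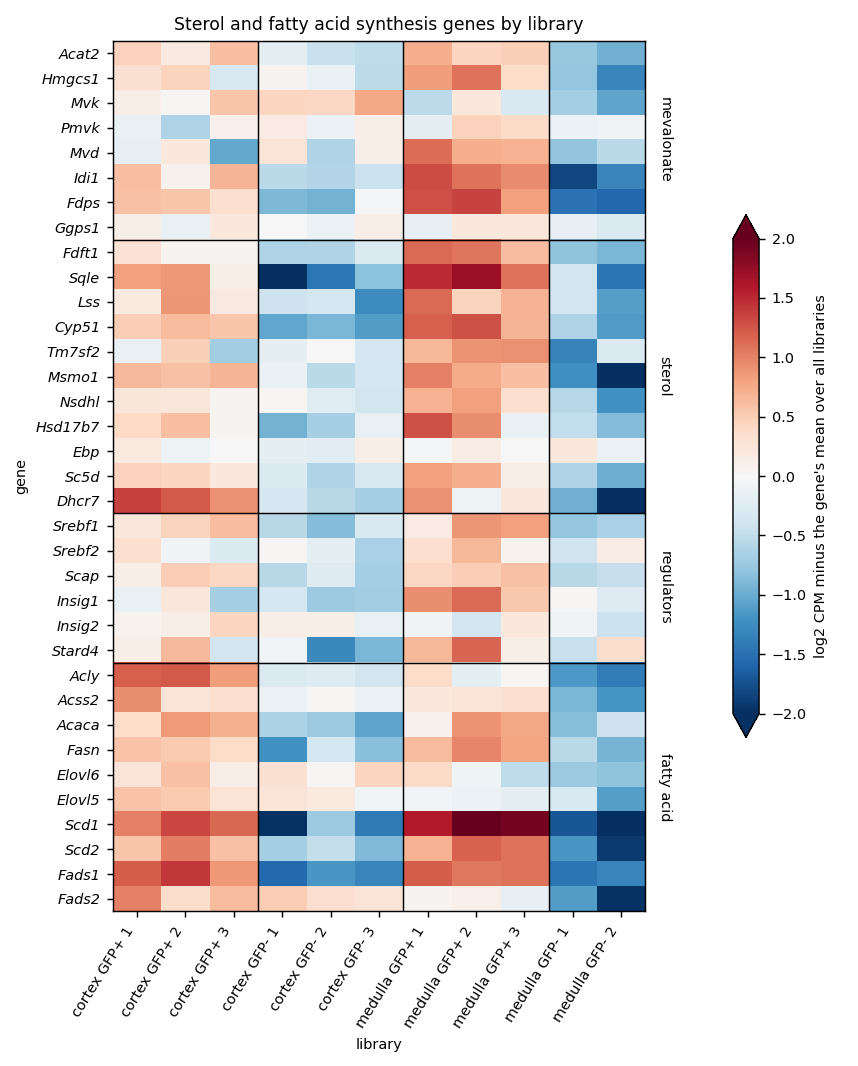
Levels of the 35 genes in the 11 libraries, as log2 CPM minus the gene's mean over the 11 libraries, with genes in pathway order and libraries by group. Most rows are red in the GFP-positive columns and blue in the GFP-negative columns of both tissues, while Ebp, Ggps1, Insig2 and Pmvk are paler throughout.

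In the cortex, 17 of the 35 genes were higher in GFP-positive cells and 0 were lower (48.6% called), relative to GFP-negative cells. In the same comparison 7.14% of all genes tested were called higher and 7.59% lower. The median log2 change of the 35 genes was 0.80, against 0.03 over all genes tested, and 32 of the 35 changes were positive. The calls included 6 of 10 fatty acid genes, 7 of 11 genes from squalene to cholesterol, 2 of 6 regulators and 2 of 8 mevalonate and isoprenoid genes. Fads1, Scd1 and Sqle had the 3 largest folds. At an unadjusted p under 0.05, 0 of the 35 were lower, against 14.7% of all genes, and DESeq2 called 19 higher and 0 lower, against 10.7% higher and 11.3% lower over all genes. With library totals alone as the scaling, the calls over all genes split into 1244 higher and 2032 lower, against 1492 and 1586 with TMM scaling. Genes were called at an adjusted p under 0.05 in edgeR's quasi-likelihood test with Benjamini-Hochberg adjustment over 20893 genes, and each SE is approximate, from the log2 change and its F statistic.

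The same libraries differed in markers of other cells. In the cortex, 12 of 12 macrophage markers were lower in GFP-positive cells, with summed levels of 55.3 to 243 CPM in GFP-positive and 2644 to 4380 CPM in GFP-negative libraries. Of 12 steroid cell markers, 5 were higher and 2 lower in cortex GFP-positive cells. They included Cyp11b1, the enzyme that completes glucocorticoid synthesis (log2 1.97), Fdx1, the electron donor of mitochondrial steroid hydroxylases (log2 1.66), and Cyp11b2, which makes aldosterone (log2 -3.94). Schwann cell and glia markers summed to 509 to 705 CPM in GFP-positive and 232 to 316 CPM in GFP-negative cortex, with 9 of 12 called higher. Pericyte and smooth muscle markers summed to 60.0 to 232 CPM in GFP-positive and 2.01 to 6.87 CPM in GFP-negative cortex, with 5 of 9 called higher. Mitochondrially encoded genes took 10.6% to 16.7% of counts in cortex GFP-positive and 7.03% to 7.30% in cortex GFP-negative libraries. The part of these differences in the lipid gene changes was not tested.

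Among the fatty acid enzymes in the cortex, Fads1 (chr19:10182888-10196870, + strand, mm10), a desaturase of polyunsaturated fatty acids, had 1000, 1155 and 786 CPM in GFP-positive libraries, against 148, 192 and 173 CPM in GFP-negative libraries. The groups were widely separated, by 5.73-fold (log2 2.52, SE 0.162, edgeR adjusted p = 3.80e-05). Its neighbour Fads2 (chr19:10064164-10101503, - strand), the desaturase that acts before Fads1 on the same fatty acids, had 293, 186 and 225 CPM in GFP-positive libraries, against 208, 184 and 174 CPM in GFP-negative libraries. The Fads2 libraries overlapped between gates and it was not called (log2 0.32, SE 0.224, edgeR adjusted p = 0.385). Acly (chr11:100476353-100528000), which makes cytosolic acetyl-CoA from citrate and so feeds both pathways, had 1395, 1426 and 1087 CPM in GFP-positive libraries, against 500.3, 509 and 472 CPM in GFP-negative libraries. The GFP-positive libraries spread more than the GFP-negative ones but lay far above them, at 2.64-fold (log2 1.40, SE 0.163, edgeR adjusted p = 0.000546).

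Scd1 (chr19:44394451-44407709), a desaturase that makes monounsaturated fatty acids, had 105, 132 and 116 CPM in cortex GFP-positive libraries, against 13.2, 31.6 and 19.6 CPM in cortex GFP-negative libraries. All GFP-positive libraries were above all GFP-negative ones, by 5.47-fold on average (log2 2.45, SE 0.385, edgeR adjusted p = 0.00249). Scd2 (chr19:44293676-44306864), its neighbouring paralog and the form with broader expression outside liver and fat, had 594, 818 and 603 CPM in GFP-positive libraries, against 253, 288 and 218 CPM in GFP-negative libraries. Scd2 was higher by 2.65-fold (log2 1.41, SE 0.223, edgeR adjusted p = 0.00257), again without overlap. Fasn (chr11:120805846-120824547), the synthase that builds palmitate, had 75.7, 73.2 and 65.7 CPM in GFP-positive libraries, against 21.99, 39.7 and 28.6 CPM in GFP-negative libraries. The Fasn level was 2.38-fold higher (log2 1.25, SE 0.215, edgeR adjusted p = 0.00383), and its GFP-negative library 1 was the lowest of the 6 cortex libraries. Acaca, the carboxylase that supplies malonyl-CoA, averaged 16.7 ± 2.77 CPM in GFP-positive and 6.14 ± 0.910 CPM in GFP-negative cells and was also called. The acetyl-CoA synthetase Acss2 and the elongases Elovl5 and Elovl6 were not called in the cortex, with log2 changes of 0.60, 0.33 and 0.07.

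Among the enzymes from squalene to cholesterol, Cyp51 (chr5:4081145-4104746), the lanosterol demethylase, had 81.2, 89.04 and 84.4 CPM in cortex GFP-positive libraries, against 27.9, 30.7 and 26.6 CPM in cortex GFP-negative libraries. Both groups were tight and well apart, at 2.99-fold (log2 1.58, SE 0.186, edgeR adjusted p = 0.000577). Dhcr7 (chr7:143823145-143848410), the reductase of the last step to cholesterol in one branch, had 742, 672 and 544 CPM in GFP-positive libraries, against 227, 195 and 182 CPM in GFP-negative libraries. The lowest GFP-positive library was well above the highest GFP-negative one, and the fold was 3.24 (log2 1.70, SE 0.309, edgeR adjusted p = 0.00522). Sqle (chr15:59315077-59331192), the squalene epoxidase and a rate-limiting step, had 72.6, 75.3 and 44.5 CPM in GFP-positive libraries, against 10.3, 15.2 and 23.3 CPM in GFP-negative libraries. Library 3 was the lowest of the GFP-positive and the highest of the GFP-negative libraries, and the fold was 3.94 (log2 1.98, SE 0.371, edgeR adjusted p = 0.00600). By age, the log2 ratio of mean Sqle levels was 2.54 at 3.5 months (2 against 2 libraries) and 0.935 at 2.5 months (1 against 1).

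The other sterol enzymes called higher in the cortex were Msmo1, which removes methyl groups from the ring (1.97-fold), Lss, the lanosterol synthase (2.12-fold), Sc5d, a sterol desaturase (1.70-fold), and Fdft1, the squalene synthase (1.56-fold). Nsdhl and Hsd17b7, which work with Msmo1 on the methyl groups, had log2 changes of 0.35 and 0.92 and were not called, nor were the reductase Tm7sf2 and the isomerase Ebp, both at 0.12. Lss and Fdft1 were close to the threshold, with edgeR adjusted p-values of 0.0493 and 0.0300. Lss lost its call without any 1 of the 6 cortex libraries and without medulla GFP-positive library 1 or 3, with an edgeR adjusted p of up to 0.160. Fdft1 lost its call without any 1 of the cortex libraries except GFP-negative library 3 (edgeR adjusted p of up to 0.0965). Sc5d was not called without cortex GFP-positive library 1 or 2 or cortex GFP-negative library 2 or 3 (edgeR adjusted p of up to 0.0893).

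Of the mevalonate and isoprenoid genes in the cortex, Acat2, the thiolase that starts the pathway, and Idi1, the isopentenyl diphosphate isomerase, were called. Acat2 averaged 50.6 ± 7.41 CPM in GFP-positive and 29.2 ± 3.66 CPM in GFP-negative cells, a fold of 1.74. Idi1 averaged 9.48 ± 1.98 CPM in GFP-positive and 4.74 ± 0.270 CPM in GFP-negative cells, a fold of 2.00, and was not called without cortex GFP-positive library 1 or 3 or any 1 of the cortex GFP-negative libraries (edgeR adjusted p of up to 0.0891). Hmgcs1 (chr13:119690462-119708086), the synthase that makes the precursor of mevalonate, had 128, 141 and 83.5 CPM in GFP-positive libraries, against 109, 94.7 and 72.3 CPM in GFP-negative libraries. Its gates overlapped and it was not called (log2 0.36, SE 0.259, edgeR adjusted p = 0.397). The farnesyl diphosphate synthase Fdps had a log2 change of 1.05 and missed the threshold (edgeR adjusted p = 0.0577). The kinases Mvk and Pmvk and the decarboxylase Mvd had the only negative changes of the 35 genes in this comparison, at log2 -0.29, -0.26 and -0.21, and none was called, while Ggps1, the geranylgeranyl diphosphate synthase, stood at 0.05.

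Among the regulators, Scap (chr9:110333288-110384950) had 41.2, 53.3 and 50.1 CPM in cortex GFP-positive libraries, against 25.7, 31.4 and 23.5 CPM in cortex GFP-negative libraries. The groups did not overlap and the fold was 1.79 (log2 0.84, SE 0.157, edgeR adjusted p = 0.00586). Srebf1 (chr11:60199089-60222581), the gene of SREBP-1, had 53.04, 61.9 and 69.8 CPM in GFP-positive libraries, against 31.1, 24.9 and 36.9 CPM in GFP-negative libraries. It was higher by 1.99-fold (log2 0.99, SE 0.217, edgeR adjusted p = 0.0129) but was not called without cortex GFP-negative library 2 (edgeR adjusted p = 0.0504). Counts per gene do not separate its transcript forms. Srebf2 (chr15:82147266-82205376), the gene of SREBP-2, had 41.95, 32.3 and 27.97 CPM in GFP-positive libraries, against 34.2, 29.4 and 21.7 CPM in GFP-negative libraries. Its gates overlapped, and it was not called (log2 0.26, SE 0.246, edgeR adjusted p = 0.526). The sterol-dependent brakes were not called either. Insig1 averaged 30.1 ± 8.98 CPM in GFP-positive and 22.4 ± 3.31 CPM in GFP-negative cells (log2 0.43), and Insig2 averaged 74.6 ± 10.6 CPM in GFP-positive and 65.8 ± 6.74 CPM in GFP-negative cells (log2 0.18). Stard4, a carrier of cholesterol between membranes, had a log2 change of 0.85 with an SE of 0.412 and was not called.

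In the medulla, 26 of the 35 genes were higher in GFP-positive cells and 0 were lower (74.3% called), relative to GFP-negative cells. In the same comparison 10.2% of all genes tested were called higher and 11.1% lower. The median log2 change was 1.47, against 0.09 over all genes tested. At an unadjusted p under 0.05, 0 of the 35 were lower, against 16.5% of all genes, and DESeq2 called 27 higher and 0 lower, against 14.6% higher and 14.5% lower over all genes. Calls fell on 10 of 11 genes from squalene to cholesterol, 8 of 10 fatty acid genes, 5 of 8 mevalonate and isoprenoid genes and 3 of 6 regulators, each of them at least 2-fold. The 17 genes called in the cortex were all among the 26. The overlap of calls over all genes was not counted, so this overlap is not read as particular to the 35 genes. The gates share no library across tissues but may share animals. The 9 genes called in the medulla and not in the cortex were Hmgcs1, Mvd, Fdps, Tm7sf2, Nsdhl, Hsd17b7, Insig1, Acss2 and Fads2, which does not show that they differ between tissues, and the test of that difference is given below. The 9 genes called in neither were Mvk, Pmvk, Ggps1, Ebp, Srebf2, Insig2, Stard4, Elovl6 and Elovl5.

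**Figure D2:**
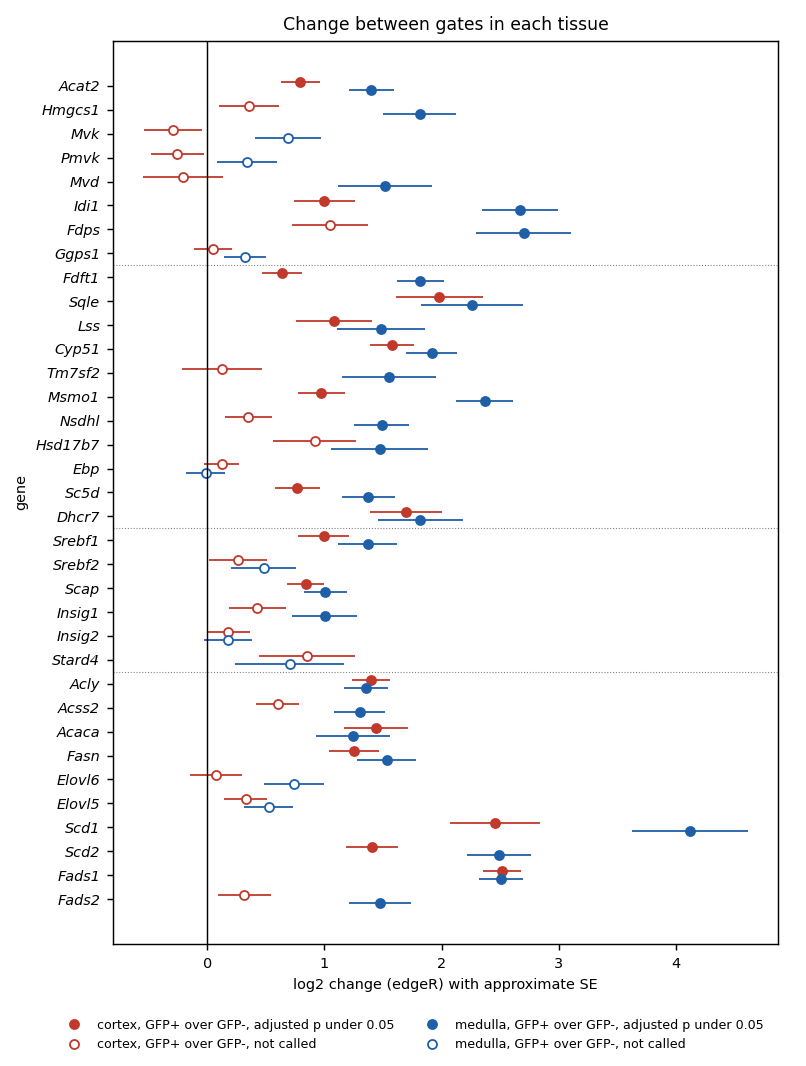
Log2 change between GFP-positive and GFP-negative cells for each gene, with its approximate SE, in the cortex (red) and the medulla (blue), and filled points where the edgeR adjusted p was under 0.05. The medulla point lies to the right of the cortex point for most mevalonate and sterol genes, while the pairs of Acly, Acaca, Dhcr7 and Fads1 nearly coincide.

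Other cells differed here too. In the medulla, 12 of 12 macrophage markers were lower in GFP-positive cells, with summed levels of 279 to 681 CPM in GFP-positive and 12990 to 14750 CPM in GFP-negative libraries. Schwann cell and glia markers summed to 2967 to 6530 CPM in GFP-positive and 225 to 247 CPM in GFP-negative medulla, with 11 of 12 called higher and with Sox10 and Foxd3 at 0 in both GFP-negative libraries. Of the 12 steroid cell markers, 7 were higher and 2 lower in medulla GFP-positive cells, among them Cyp11b1 (log2 2.79), Cyp11b2 (log2 -8.45) and Mc2r, the corticotropin receptor (log2 -1.87). Mitochondrially encoded genes took 9.61% to 15.2% of counts in medulla GFP-positive and 4.08% to 5.14% in medulla GFP-negative libraries. The part of these differences in the lipid gene changes was not tested.

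Of the mevalonate and isoprenoid genes in the medulla, Idi1 (chr13:8885501-8892451) had 16.9, 14.4 and 13.2 CPM in medulla GFP-positive libraries, against 1.94 and 2.72 CPM in medulla GFP-negative libraries. Idi1 was higher by 6.36-fold (log2 2.67, SE 0.323, edgeR adjusted p = 0.000369), with all libraries of a gate on one side. Acat2 (chr17:12942890-12960747) had 62.3, 50.8 and 52.6 CPM in GFP-positive libraries, against 22.5 and 19.5 CPM in GFP-negative libraries. Its groups did not overlap and its fold was 2.63 (log2 1.40, SE 0.192, edgeR adjusted p = 0.000775). Hmgcs1 had 185, 222 and 135 CPM in GFP-positive libraries, against 61.2 and 41.6 CPM in GFP-negative libraries. Its gates were separate, and it was higher by 3.51-fold (log2 1.81, SE 0.310, edgeR adjusted p = 0.00250). Fdps averaged 10.4 ± 1.95 CPM in GFP-positive and 1.59 ± 0.0708 CPM in GFP-negative cells, a fold of 6.50, and Mvd averaged 17.8 ± 3.08 CPM in GFP-positive and 6.22 ± 0.739 CPM in GFP-negative cells, a fold of 2.86. The 3 genes not called, Mvk, Pmvk and Ggps1, had log2 changes of 0.69, 0.34 and 0.32.

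From squalene on, Msmo1 (chr8:64718139-64733792) had 697, 575 and 526 CPM in medulla GFP-positive libraries, against 147 and 85.4 CPM in medulla GFP-negative libraries. Msmo1 was higher by 5.16-fold (log2 2.37, SE 0.241, edgeR adjusted p = 0.000155), without overlap. Fdft1 (chr14:63145153-63177793) had 108, 104 and 75.3 CPM in GFP-positive libraries, against 28.2 and 26.1 CPM in GFP-negative libraries. Its fold was 3.52 (log2 1.82, SE 0.200, edgeR adjusted p = 0.000235), and the lowest GFP-positive library was still far above both GFP-negative ones. Cyp51 had 132, 139 and 92.4 CPM in GFP-positive libraries, against 37.7 and 26.4 CPM in GFP-negative libraries. The GFP-positive level of Cyp51 was 3.77-fold higher (log2 1.92, SE 0.218, edgeR adjusted p = 0.000276), with no overlap.

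Sqle had 116, 135 and 87.2 CPM in medulla GFP-positive libraries, against 32.03 and 14.9 CPM in medulla GFP-negative libraries. It was higher by 4.80-fold (log2 2.26, SE 0.435, edgeR adjusted p = 0.00471), although its 2 GFP-negative libraries differed widely. The remaining sterol genes called were Nsdhl (2.80-fold), Lss (2.80-fold), Tm7sf2 (2.93-fold), Hsd17b7 (2.78-fold), Sc5d (2.60-fold) and Dhcr7 (3.53-fold). Without medulla GFP-negative library 1 the folds of Sqle and Dhcr7 were 7.56 and 5.47, and without GFP-negative library 2 that of Tm7sf2 was 4.50. Ebp was the exception, with 65.8 ± 4.32 CPM in GFP-positive and 66.5 ± 10.7 CPM in GFP-negative cells (SD, n = 3 and 2) and a log2 change of -0.01. Hsd17b7 lost its call without medulla GFP-positive library 1 or 2 or either GFP-negative library (edgeR adjusted p of up to 0.166). Mvd lost its call without GFP-positive library 1 or either GFP-negative library, Lss without GFP-positive library 1 or GFP-negative library 2, and Tm7sf2 without GFP-negative library 1 (edgeR adjusted p of up to 0.119, 0.139 and 0.124).

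Of the fatty acid enzymes in the medulla, Scd1 had the largest fold of the 35 genes. It had 156, 212 and 197 CPM in GFP-positive libraries, against 15.9 and 5.73 CPM in GFP-negative libraries. The fold was 17.4 (log2 4.12, SE 0.494, edgeR adjusted p = 0.000356), on a GFP-negative level at which the 2 libraries also differed, and it was 32.95 without GFP-negative library 1. Scd2 had 651, 910.3 and 857 CPM in GFP-positive libraries, against 179.7 and 107 CPM in GFP-negative libraries. Scd2 was higher by 5.62-fold (log2 2.49, SE 0.270, edgeR adjusted p = 0.000217). Fads1 had 1003, 895 and 915 CPM in GFP-positive libraries, against 158 and 173 CPM in GFP-negative libraries. Its libraries were tight within each gate, and its fold of 5.67 (SE 0.189 on the log2 scale, edgeR adjusted p = 4.27e-05) was close to the 5.73 of the cortex. Fads2 was called in the medulla, with 151, 156 and 130.3 CPM in GFP-positive libraries, against 67.4 and 37.2 CPM in GFP-negative libraries. Its groups did not overlap and its fold was 2.78 (log2 1.48, SE 0.264, edgeR adjusted p = 0.00320).

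Fasn averaged 88.98 ± 10.96 CPM in medulla GFP-positive and 30.8 ± 5.99 CPM in medulla GFP-negative cells, a fold of 2.89 (edgeR adjusted p = 0.00193). Acly, Acss2 and Acaca were higher by 2.56-fold, 2.47-fold and 2.37-fold. Acaca was not called without medulla GFP-positive library 2 or 3 or GFP-negative library 1 (edgeR adjusted p of up to 0.117). The elongases Elovl5 and Elovl6 were not called, with log2 changes of 0.52 and 0.74 and edgeR adjusted p-values of 0.104 and 0.0672.

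Of the 6 regulators in the medulla, Srebf1, Scap and Insig1 were called. Srebf1 averaged 71.8 ± 17.9 CPM in medulla GFP-positive and 27.8 ± 1.65 CPM in medulla GFP-negative cells, a fold of 2.58 (edgeR adjusted p = 0.00368). Scap averaged 53.4 ± 3.09 CPM in GFP-positive and 26.5 ± 1.15 CPM in GFP-negative cells, a fold of 2.01 (edgeR adjusted p = 0.00312). Insig1 (chr5:28071363-28078662) had 64.2, 73.7 and 49.03 CPM in GFP-positive libraries, against 34.2 and 27.99 CPM in GFP-negative libraries. It was higher by 2.00-fold (edgeR adjusted p = 0.0269), a call that was lost without medulla GFP-positive library 1 or 2 and without either GFP-negative library (edgeR adjusted p of up to 0.163). Srebf2 averaged 44.1 ± 9.18 CPM in GFP-positive and 31.6 ± 8.32 CPM in GFP-negative cells and was not called (log2 0.48, SE 0.279). Insig2 averaged 61.6 ± 12.1 CPM in GFP-positive and 54.5 ± 9.53 CPM in GFP-negative cells (log2 0.17), and Stard4 had a log2 change of 0.70 with an SE of 0.464, and neither was called.

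**Figure D3:**
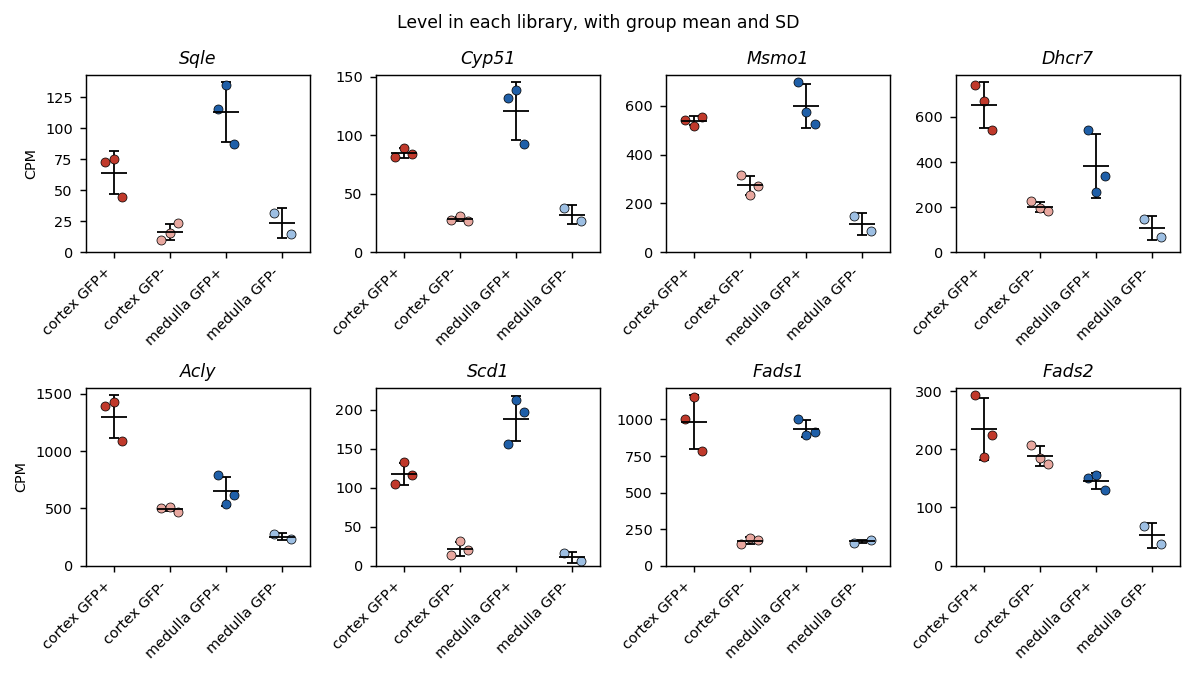
CPM of 8 genes in each library (points), with the mean and SD of each group (horizontal line and whiskers, n = 3, 3, 3 and 2), on linear axes that start at 0. GFP-positive libraries lie above GFP-negative ones of the same tissue in every panel except Fads2 in the cortex, where the groups overlap.

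Age was partly confounded with the gate in the medulla. All 26 genes called there changed in the same direction among libraries of 3.5 months alone, with 1 GFP-positive and 2 GFP-negative libraries, and there was no GFP-negative medulla library of 2.5 months. With age as a term in the fit, 25 of the 26 were still called, and Acaca was not (edgeR adjusted p = 0.0673). In the cortex all 17 called genes had the same direction at 3.5 months (2 against 2 libraries) and at 2.5 months (1 against 1). The cortex calls were all kept with the age term. The within-age values are directions only and carry no test. The gates of every called gene did not overlap, so the libraries of either age had to show the same direction. These directions therefore cannot check for an effect of age.

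Between the tissues, 3 of the 35 genes were called in GFP-positive cells. Cortex was higher than medulla in 1 gene and lower in 2 (6.04% of all genes tested were called higher and 9.45% lower), and the median log2 change was -0.26, against -0.03 over all genes tested. At an unadjusted p under 0.05 in edgeR there were 13 of 35, against 6048 of 20893 genes, so the small number of calls depended on the threshold. Acly had 1395, 1426 and 1087 CPM in cortex GFP-positive libraries, against 790.4, 538 and 617 CPM in medulla GFP-positive libraries. The groups did not overlap, and Acly was higher in the cortex by 2.01-fold (log2 1.01, SE 0.162, edgeR adjusted p = 0.00301). Fdft1 had 60.4, 51.4 and 51.1 CPM in cortex GFP-positive libraries, against 108, 104 and 75.3 CPM in medulla GFP-positive libraries. It was 1.76-fold lower in the cortex (log2 -0.82, SE 0.168, edgeR adjusted p = 0.00978). Insig1 had 30.1, 39.1 and 21.2 CPM in cortex GFP-positive libraries, against 64.2, 73.7 and 49.03 CPM in medulla GFP-positive libraries. It was 2.07-fold lower in the cortex (log2 -1.05, SE 0.242, edgeR adjusted p = 0.0168), a call that was lost without medulla GFP-positive library 2 (edgeR adjusted p = 0.0592).

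The other 32 genes were not called between GFP-positive cells of the tissues, with log2 changes between -1.09 for Mvd and 0.77 for Dhcr7. The log2 changes of the named regulators and enzymes were -0.22 for Srebf1, -0.37 for Srebf2, -0.15 for Scap, 0.28 for Insig2 and -0.62 for Hmgcs1. Sqle stood at -0.81, Fasn at -0.32, Scd1 at -0.68 and Scd2 at -0.26. Steroid cell marker sums differed between these groups (65610 to 75420 CPM in cortex and 24190 to 42950 CPM in medulla), with 9 of 12 markers called higher in the cortex, and 11 of 12 glia markers and 12 of 12 chromaffin markers were lower there. The part of these markers in the changes of Acly, Fdft1 and Insig1 was not tested. DESeq2 called 8 of the 35 genes in this comparison, 3 higher and 5 lower in the cortex, and 7.59% of all genes higher and 13.5% lower, so its calls among the 35 were near its share over all genes.

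In GFP-negative cells, 9 of the 35 genes were higher in cortex than in medulla and 0 were lower (8.06% of all genes tested were called higher and 10.6% lower), with a median log2 change of 0.39, against -0.02 over all genes tested. Of these 9, 6 were fatty acid genes. At an unadjusted p under 0.05, 0 of the 35 were lower, against 18.6% of all genes, and DESeq2 called 11 higher and 0 lower, against 11.2% higher and 16.5% lower over all genes. Fads2 had 208, 184 and 174 CPM in cortex GFP-negative libraries, against 67.4 and 37.2 CPM in medulla GFP-negative libraries. It was higher in the cortex by 3.60-fold (log2 1.85, SE 0.268, edgeR adjusted p = 0.00211). Msmo1 had 315, 236 and 270.1 CPM in cortex GFP-negative libraries, against 147 and 85.4 CPM in medulla GFP-negative libraries. It was higher by 2.36-fold (log2 1.24, SE 0.229, edgeR adjusted p = 0.00607). Acly had 500.3, 509 and 472 CPM in cortex GFP-negative libraries, against 276 and 232 CPM in medulla GFP-negative libraries. It was higher by 1.95-fold (edgeR adjusted p = 0.00712), close to the 2.01-fold seen in GFP-positive cells.

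Mvk, the mevalonate kinase, had 23.4, 23.3 and 29.7 CPM in cortex GFP-negative libraries, against 10.9 and 8.41 CPM in medulla GFP-negative libraries. The cortex level of Mvk was 2.64-fold higher (edgeR adjusted p = 0.00934). Acss2 had 33.3, 36.6 and 33.3 CPM in cortex GFP-negative libraries, against 19.2 and 15.9 CPM in medulla GFP-negative libraries, and its fold was 1.96 (edgeR adjusted p = 0.0128). The 2 elongases were both called, and each was above its medulla level in every cortex library. Elovl6 had 44.8, 37.1 and 48.99 CPM in cortex GFP-negative libraries, against 21.9 and 20.9 CPM in medulla GFP-negative libraries, at 2.04-fold (edgeR adjusted p = 0.0223). Elovl5 had 614, 589 and 496 CPM in cortex GFP-negative libraries, against 416 and 241 CPM in medulla GFP-negative libraries, at 1.73-fold (edgeR adjusted p = 0.0283). Idi1 had 4.67, 4.52 and 5.04 CPM in cortex GFP-negative libraries, against 1.94 and 2.72 CPM in medulla GFP-negative libraries, at 2.04-fold (edgeR adjusted p = 0.0403). The Idi1 levels were low but separate. Scd2 had 253, 288 and 218 CPM in cortex GFP-negative libraries, against 179.7 and 107 CPM in medulla GFP-negative libraries, at 1.77-fold (edgeR adjusted p = 0.0456).

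These calls rested on few medulla libraries. Without medulla GFP-negative library 2, Fads2 and Msmo1 were the only 2 still called, and the adjusted p of Scd2 reached 0.305 (edgeR). Leaving out cortex GFP-negative library 1, 2 or 3 left 5, 6 and 6 of the 9 calls. Idi1 was called in 2 of the 11 fits with a library left out. With age as a term, 7 of the 9 were still called, and Idi1 and Scd2 were not (edgeR adjusted p = 0.0624 and 0.0674). Among libraries of 3.5 months alone all 9 genes had the same direction, as they had to, because their groups did not overlap. Macrophage markers moved with the tissue in these cells, with summed levels of 2644 to 4380 CPM in cortex and 12990 to 14750 CPM in medulla, and so did steroid cell markers, at 37770 to 42630 CPM in cortex and 9333 to 17170 CPM in medulla. The part of these markers in the result was not tested. The uncalled changes of the regulators and selected enzymes were log2 0.16 for Srebf1, -0.15 for Srebf2, 0.02 for Scap, -0.47 for Insig1 and 0.27 for Insig2. Those of Hmgcs1, Sqle, Fasn and Scd1 were 0.84, -0.53, -0.03 and 0.99.

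The difference between the gate changes of cortex and medulla was tested directly, as the log2 change in cortex minus that in medulla. None of the 35 genes passed (0 of 35 by edgeR, with 337 of 20893 genes, 1.61%, called). At an unadjusted p under 0.05 there were 14 of 35, against 3495 of all genes (16.7%), and DESeq2 called 10 of 35, against 8.68% of the genes it tested. With library totals alone as the scaling, the calls over all genes split into 122 higher and 270 lower, against 179 and 158 with TMM scaling. The difference was negative, meaning a lower log2 change in the cortex, for 29 of the 35 genes, with a median of -0.58 against -0.02 over all genes tested. The lowest edgeR adjusted p-values were 0.0512 for Msmo1 (log2 difference -1.39, SE 0.299), 0.0524 for Fdft1 (-1.18, SE 0.254) and 0.0692 for Idi1 (-1.67, SE 0.396).

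By pathway step, the median log2 difference was -1.22 for the 8 mevalonate and isoprenoid genes, -0.56 for the 11 genes from squalene to cholesterol, -0.20 for the 6 regulators and -0.47 for the 10 fatty acid genes. The differences of the named genes were -1.46 for Hmgcs1, -0.28 for Sqle, -0.28 for Fasn, -1.67 for Scd1 and -1.08 for Scd2. For the regulators they were -0.38 for Srebf1, -0.22 for Srebf2, -0.17 for Scap, -0.58 for Insig1 and 0.01 for Insig2. Fads1 and Acly had differences of 0.01 and 0.04, with SEs of 0.229 and 0.241.

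Levels were compared between genes as CPM per kilobase of exon. In cortex GFP-positive cells the order was led by Fads1 (284 ± 53.6 CPM per kb), Acly (247 ± 35.5), Elovl5 (202 ± 21.8), Fads2 (156 ± 35.6), Scd2 (123 ± 23.2) and Dhcr7 (112 ± 17.3) (SD, n = 3), in which each neighbour overlapped the next within its SD. In cortex GFP-negative cells Elovl5 led with 161 ± 17.6 CPM per kb, followed by Fads2 with 125 ± 11.4 and Acly with 93.5 ± 3.62, all separate by their SDs, and Fads1 came next with 49.5 ± 6.49. In medulla GFP-positive cells Fads1 led with 271 ± 16.6 CPM per kb, separate from Scd2 with 148 ± 25.1. In medulla GFP-negative cells Elovl5 led with 93.2 ± 35.05 CPM per kb (SD, n = 2). There Fads1 had 47.8 ± 3.07 and Fads2 34.7 ± 14.2 CPM per kb, which overlapped within their SDs. Fads1 thus stood above Fads2 per length in both GFP-positive groups and below it in cortex GFP-negative cells, and the pair was not separate in medulla GFP-negative cells. At the other end, Acaca was lowest in cortex GFP-positive cells with 0.976 ± 0.163 CPM per kb, where its deposited exon length is the longest of the 35 genes at 17074 bases. Coverage along transcripts was not measured, and the deposited length is 1 value per gene, whatever transcript forms were expressed. Levels per length, and the order of genes by them, assume even coverage and that this length holds.

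**Figure D4:**
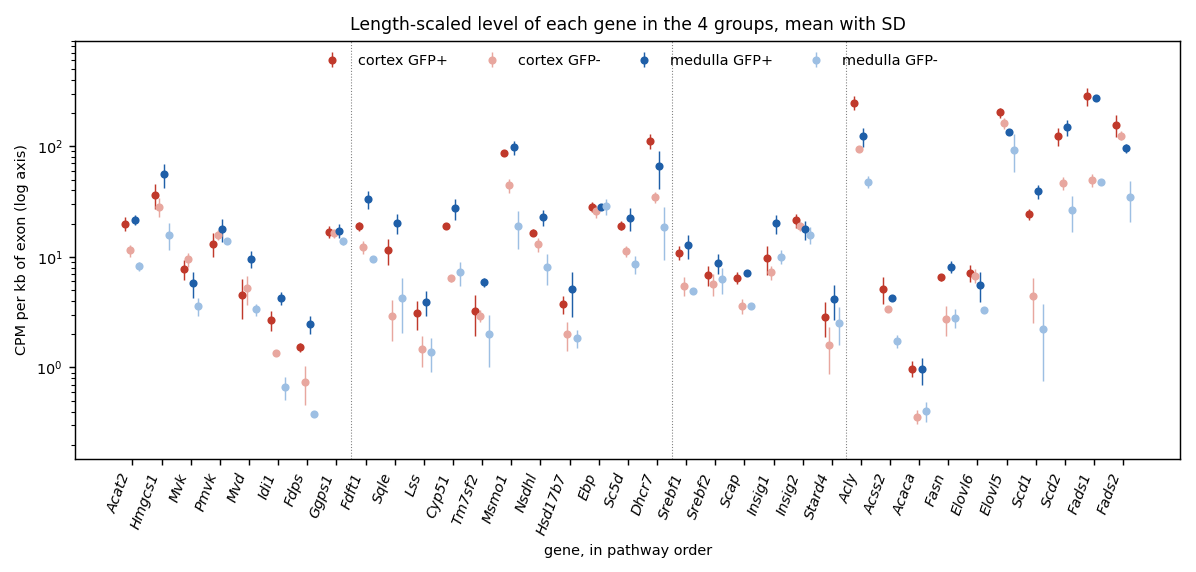
CPM per kilobase of exon for each of the 35 genes in the 4 groups, as mean and SD on a log axis, with genes in pathway order (n = 3, 3, 3 and 2). Fads1 is at the top in both GFP-positive groups, and Ebp, Ggps1 and Insig2 have nearly equal levels in all 4 groups.

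Related genes outside the 35 were counted in 3 lists, beside 14.7% of all genes called in either direction between gates in the cortex and 21.4% in the medulla. Of 22 tested genes (24 listed) of other sterol and isoprenoid steps, 2 rose and 2 fell in cortex GFP-positive cells (median log2 -0.09) and 7 rose and 2 fell in medulla GFP-positive cells (median 0.26), which is 18.2% and 40.9% called. Cyp27a1, the mitochondrial sterol hydroxylase of bile acid synthesis, fell in both, with log2 changes of -4.01 in the cortex and -4.39 in the medulla. Osbp, a sterol transfer protein, rose by log2 0.54 in the cortex and 0.67 in the medulla. Nus1, part of the enzyme that makes dolichol chains, rose by 0.73 in the cortex, and the dolichol kinase Dolk rose by 0.80 in the medulla. Of 22 tested genes (23 listed) of SREBP processing and sterol sensing, 3 rose and 2 fell in the cortex (median 0.14) and 5 rose and 1 fell in the medulla (median 0.09), which is 22.7% and 27.3% called. With 22 genes tested in each list, the cortex shares of both lists and the medulla share of the SREBP list were near those over all genes. Pgrmc2 rose by log2 0.76 and Mylip, a ligase that degrades lipoprotein receptors, fell with a log2 change of -2.82 in the cortex. Pgrmc1, a haem-binding membrane protein, rose by 1.29 and Sec24d, a coat protein of vesicles leaving the endoplasmic reticulum, by 1.22 in the medulla.

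Of 40 tested genes (43 listed) of other fatty acid and glycerolipid steps, 7 rose and 3 fell in cortex GFP-positive cells (median log2 0.39) and 11 rose and 7 fell in medulla GFP-positive cells (median 0.47), which is 25% and 45% called. The elongation reductase Hsd17b12 had a log2 change of -0.91 in the cortex and was called lower. Fads6, a member of the desaturase family, rose by 2.45 in the cortex and 3.11 in the medulla, and Acsl4, which activates arachidonate, rose by 1.23 in the cortex. In the medulla the malic enzyme Me1, a source of NADPH, rose by 2.32, and Hacd4, of the elongation dehydratase family, was lower with a log2 change of -4.18. All of these calls are from the edgeR test across all genes.

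The authors' deposited table for the cortex gate listed adjusted p-values under 0.05 for 2 of the 35 genes, Scd1 (log2 2.39) and Fads1 (log2 2.49), and for 3.64% of its genes with a p-value. The authors' deposited table for the medulla gate listed 9, all higher in GFP-positive cells, and 6.13% of its genes: Idi1, Fdps, Fdft1, Sqle, Cyp51, Msmo1, Scd1, Scd2 and Fads1. The authors' deposited table for GFP-positive cells of the tissues listed 0 of the 35 and 4.09% of its genes, with log2 0.95 for Acly, -0.87 for Fdft1 and -1.09 for Insig1. The authors' deposited tables cover 25509 genes each, and the test behind their p-values is not given in the sources used here.

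Some of the 35 genes share sequence or exons with other genes, and the library protocol does not mark strand. Acat2 shares 39.1% of its 50-base stretches with Acat3, Acaca 29.2% with the gene model Gm5182, Fdps 23.4% with Gm43738 and Idi1 17.7% with Gm13502, so their counts are uncertain. Scd1 and Scd2 share 2.97% of the stretches of Scd1. On the same strand, exons of Fdps overlap those of Gm43738 over 26.7% of bases, and those of Tm7sf2 overlap Vps51 over 12.1%. On the other strand, exons of Fdft1 overlap those of Ctsb over 18.3% of bases. Those of Scap overlap 5830462I19Rik over 13.2% and those of Hmgcs1 overlap Gm48342 over 12.1%, also on the other strand. The lowest counts per library were those of Fdps, at 38 to 338, and Idi1, at 53 to 415.

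Set beside the promoter windows printed above, the calls fell as follows. The windows were picked by their motifs and calls, so motif and call go together in them by choice. In Hmgcs1 the element TCACCCCAC starts 137 bases before the start, downstream of an inverted CCAAT, and the gene was higher in GFP-positive cells by 3.51-fold in the medulla and uncalled in the cortex. Cyp51 has a single CCAAT 29 bases before the start, and Msmo1 has 2 in the window shown, at 55 and 96 bases. Both were called in both tissues. Fasn has 3 CCAAT boxes, of which 2 overlap on opposite strands as CCAATTGG. Insig1 has a CACGTG 101 bases before the start and no CCAAT in the window shown. Of the 9 genes called in neither tissue, Mvk, Pmvk, Ggps1, Ebp, Srebf2, Insig2 and Elovl5 also hold a CCAAT in the 250 bases. Scap, called in both tissues, holds a CACGTG and no CCAAT there. A match is a stretch of letters and was not tested for binding.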

How the data were processed

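The 11 RNA-seq libraries were made from sorted cells with poly(A)-primed cDNA, template switching, 17 cycles of PCR and transposase fragmentation, per the labels' protocols. The authors deposited raw read counts for each gene, in whole numbers, with a gene length (other columns, in bases) per the file headers. Per the submitters' processing notes, mm10 was the build and the tools were DESeq2 1.18.1, DESeq, featureCounts 1.6.0, GSNAP 2018-03-11 and bcl2fastq 2.19.1, with no role given for any. Besides counts, the authors deposited 3 comparison tables with log2 fold changes and p-values per the file headers; their 17 normalized per-library columns and 6 group-mean columns were not used. Reads from PCR carry no molecular identifiers here and can be copies of one molecule, so floors cover counting error only.

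Libraries were grouped from their titles. Counts of 92 spike-in sequences (10 in all) were left out. After TMM scaling and filtering with filterByExpr, a single edgeR 4.0.16 model (R 4.3.3, glmQLFit and glmQLFTest) covered all libraries, with 7 residual degrees of freedom, a prior of 3.2 (median), a common biological coefficient of variation of 0.479 and Benjamini-Hochberg adjustment over 20893 genes at 0.05. Each SE is the size of the log2 change over the root of its F statistic. The calculation was run on simulated data whose changes were larger than most of those reported here, so smaller changes were not covered. Alternatives were DESeq2 1.42.0, other scalings, no filter, a replicate block, an age term, the compared groups alone and each library left out. The 35 genes and all lists were chosen with earlier results of these data known. Genes that passed were named, with values per library for up to 8 by adjusted p, besides Srebf1, Srebf2, Scap, Insig1, Insig2, Hmgcs1, Sqle, Fasn, Scd1 and Scd2 in every comparison, and up to 3 called genes per other list. A gene that this rule names is not reported here. Labels do not say which libraries share a pool, so p-values reflect only how libraries vary, and some of that spread may be technical. By the ages, libraries of at least 1 medulla group shared mice if pools were of 1 age each. The medulla comparisons may therefore rest on fewer independent samples than libraries. Libraries within a group differed by more than sampling noise (29.1 to 104 for chi-square over its degrees of freedom), and each counted as 1 sample.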

Additional observations from a re-analysis of the deposited data

How the results depend on the processing

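The 43 calls of the 35 genes between gates kept their direction in all 774 recomputed values. Of 1592 values for 89 gene results, 88 lost and 13 gained a call and 27 changed sign, 0 of them called. Leaving out 1 library gave 12 to 17 of the 35 genes called in the cortex, 22 to 26 in the medulla, 2 to 5 between GFP-positive tissues, 2 to 10 between GFP-negative tissues and 0 to 5 for the difference of gate changes, and 1959 to 3252, 2956 to 4390, 2006 to 3370, 1411 to 4045 and 56 to 489 of all genes. Between GFP-positive tissues, 3 genes were called, against 5 with library totals alone, 8 with DESeq2, 7 with the replicate block and 6 with the compared groups alone. For the difference of gate changes, 0 were called, against 2 with DESeq2 size factors, 3 with library totals, 2 without the filter, 10 with DESeq2 and 2 with the replicate block, and over all genes 337, against 1595 with DESeq2, 176 with the block and 93 with an age term. The cause was not tested. With library totals alone the median of all genes moved to 0.15 in the medulla, -0.10 between GFP-positive tissues and -0.19 for the difference of gate changes. Idi1 and Fdft1 lost their cortex calls with the replicate block and with library totals, Idi1 also without the filter, and Lss with library totals and with DESeq2 size factors. In the medulla, Tm7sf2, Hsd17b7 and Acaca lost theirs with the compared groups alone and Acaca with an age term. Between GFP-negative tissues, Idi1 and Scd2 lost theirs with the replicate block, an age term, DESeq2 size factors and the compared groups alone, Idi1 also without the filter and Elovl5 with the compared groups alone. The labels do not say whether replicate numbers pair the libraries. Same-numbered libraries correlated, as deviations from group means, at 0.034 to 0.071 between cortex gates and 0.026 to 0.043 between GFP-positive tissues. Differently numbered ones correlated at -0.054 to -0.005 and -0.023 to -0.008. In both comparisons every library correlated best with its own number, a pattern in the data and not the design. It does not show shared mice. Number 2 was of 3.5 months in cortex GFP-positive and 2.5 months in medulla GFP-positive cells (correlation 0.032), so those libraries came from different mice. Number 2 of the medulla gates also differed in age, and the replicate block joined these libraries. Same-numbered values were -0.009 to 0.016 between medulla gates and 0.006 to 0.034 between GFP-negative tissues. These cannot decide pairing, because deviations of the 2 medulla GFP-negative libraries from their mean mirror each other.

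The values that changed sign were those of uncalled genes. Between GFP-negative tissues, Scap (0.02) stood at -0.045 with DESeq2 size factors, -0.044 with DESeq2 and -0.008 with the compared groups alone, Fasn (-0.03) at 0.068 with library totals, and Srebf1 (0.16) at -0.008 with an age term. Leaving out 1 library moved Scap between -0.11 and 0.11, Fasn between -0.29 and 0.18, Srebf1 between 0.01 and 0.29, Srebf2 between -0.39 and 0.15 and Sqle between -0.98 and 0.13. For the difference of gate changes, Insig2 (0.006) stood at -0.17 with library totals and -0.013 without the filter, and 1 library moved Insig2 between -0.19 and 0.18, Srebf2 between -0.52 and 0.022 and Sqle between -0.94 and 0.17. The number of libraries, 2 to 3 a group, limits the precision, and these genes had at least 276 counts per library, the lowest being that of Sqle.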
